A study of Mus musculus with 9 samples.

Results

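The genes described here are 32 members of the interferon response and of major histocompatibility complex (MHC) class I antigen presentation, measured by RNA sequencing in the medial prefrontal cortex of mice. They were chosen by name, and each of the 32 symbols matched 1 of the 35125 gene rows of the expression table. Of these, 30 were among the 14013 genes that passed a filter of at least 0.5 FPKM in at least 3 libraries, where FPKM counts the mapped fragments of a gene relative to its transcript length and to all mapped fragments. Parp14 and H2-Q7 did not pass. No member passed the adjusted threshold in any of the 3 comparisons between groups, and the values are given as measurements with that limit.

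There were 3 groups of 3 libraries each. The running model is labelled as exercise, and the series text describes running in mice that had been exposed to chronic unpredictable stress (CUS). The CUS model is labelled with the stress, and the control with neither stress nor exercise. All 9 libraries carry the terms 4 week and week 8, without a statement of what either period counts, and the labels name neither strain nor age. They do not say whether each library came from its own animal, so a p-value here reflects library-to-library spread, which could be technical.

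Cells that sense foreign nucleic acid or receive interferon activate STAT and IRF transcription factors, which bind interferon-stimulated response elements (ISRE) and gamma-activated sites (GAS) in promoters. The induced genes include antiviral effectors and the MHC class I machinery, in which a heavy chain and beta-2 microglobulin carry a peptide to the cell surface. In the brain, microglia and endothelium express many of these genes at rest, and neurons use class I molecules in synaptic refinement.

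The promoters of the members were read from RefSeq on build GRCm38.p6, in windows of 250 bases before to 50 bases after the annotated start. Such a window was found for 27 of the 32 members, and the others were Ifi27, Parp14, Usp18, Rtp4 and Tap2. The stretches printed here, 5′ to 3′ on the strand of the gene, belong to members whose levels are discussed below or whose promoters hold several motif copies. Capitals mark the motif letters, searched on both strands. These were GAAA, any 2 bases and GAAA for ISRE, TTCNNNGAA for GAS, and GGGGA, any 1 base and TCCC for enhancer A, an NF-kappaB type site of class I promoters.
Bst2, chr8:71537567-71537628, minus strand: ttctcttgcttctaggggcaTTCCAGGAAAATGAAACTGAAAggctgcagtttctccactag
B2m, chr2:122147528-122147577, plus strand: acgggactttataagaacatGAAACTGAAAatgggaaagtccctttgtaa
H2-K1, chr17:34000428-34000478, minus strand: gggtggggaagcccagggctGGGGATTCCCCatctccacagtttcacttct
Isg15, chr4:156200855-156200916, minus strand: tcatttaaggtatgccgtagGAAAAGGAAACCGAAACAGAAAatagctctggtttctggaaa
Ifit1, chr19:34640765-34640833, plus strand: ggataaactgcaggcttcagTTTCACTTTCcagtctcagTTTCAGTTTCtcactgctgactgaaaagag
Ifitm2, chr7:140955978-140956027, minus strand: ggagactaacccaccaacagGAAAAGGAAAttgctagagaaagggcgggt
Stat2, chr10:128270256-128270305, plus strand: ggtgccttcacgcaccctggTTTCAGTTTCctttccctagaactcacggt

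In Bst2 and Isg15 the marked letters are overlapping copies, and in Bst2 a GAS overlaps the first ISRE. ISRE letters stood in the windows of 11 of the 27 members (40.7%), namely B2m, H2-T23, H2-T22, Stat2, Ifih1, Ifit1, Ifit3, Isg15, Bst2, Ifitm2 and Ifitm3, and in 3.99% of the 27025 genes with a window. GAS letters stood in 5 members, Bst2, Ifitm3, Ifit2, Ifi35 and Irf1 (18.5%), and in 9.55% of all genes. Enhancer A letters stood in H2-D1, H2-K1, H2-Q7 and Irf1 (14.8%), and in 0.381% of all genes. These are letter matches only, and a window without them says nothing about binding of a factor.

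**Figure D1:**
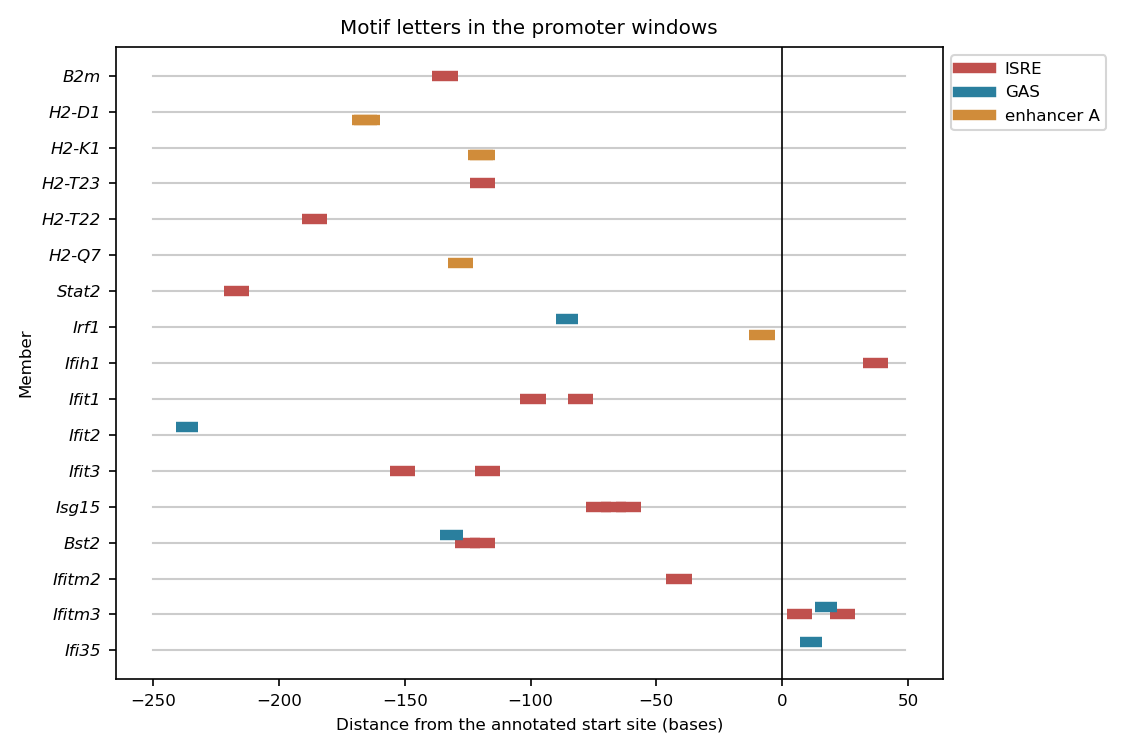
Motif letters in the promoter windows of the 17 members that hold any, against distance from the annotated start site in bases, with ISRE in red, GAS in blue and enhancer A in orange. Most marks lie before the start site, and those of Ifih1, Ifitm3 and Ifi35 lie after it.

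Across the 9 libraries the members covered a wide range of levels. B2m, the light chain of every class I molecule, had the highest mean at 104 FPKM, and H2-Q7, a non-classical class I heavy chain, the lowest at 0.190 FPKM. Of the heavy chains, the classical H2-D1 averaged 18.9 FPKM and H2-K1 11.7 FPKM, and the non-classical H2-T23, H2-T22 and H2-Q4 averaged 14.7, 10.9 and 3.99 FPKM. Over the libraries H2-D1 spanned 15.96 to 22.02 FPKM, H2-T23 12.95 to 16.25 FPKM, H2-K1 9.0 to 15.95 FPKM and H2-T22 9.64 to 12.51 FPKM. Each of these overlapped its neighbour in the order, and H2-Q4, at most 5.28 FPKM, lay below them all. The peptide transporter subunits Tap1 and Tap2 averaged 0.860 and 2.73 FPKM, well under Tapbp, the tapasin that couples the transporter to the heavy chain, at 9.84 FPKM. In bulk tissue, fewer cells of a type and less RNA per cell cannot be told apart.

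Some members share sequence with relatives, and their reads can be divided between copies. Of all 50-base stretches of the longest coding transcript, another annotated gene also held 51.2% for Ifit3 (its copy Ifit3b), 48.5% for Ifitm2 (Ifitm3 and predicted copies), 44.7% for H2-T22, 39.2% for H2-Q4, 34.9% for H2-Q7 and 29.8% for H2-T23. By this share these 6 are the least certain levels. The share was 21.0% for Tapbp, 14.3% for H2-D1, 8.8% for H2-K1 and 2.8% for Irf9, and no stretch of B2m, Bst2 or Stat2 was shared. The protocol does not mark strand, and annotated exons overlap on the opposite strand for Tap1 and Psmb9 over 212 bases and for Irf3 and Bcl2l12 over 88 bases. The largest opposite-strand overlaps were with noncoding genes, over 1003 bases for H2-T22, 904 for Tapbp, 533 for Tap2 and 496 for H2-Q4. On the same strand, exons of Irf9 overlap those of Rnf31 over 123 bases and exons of Rtp4 overlap a processed transcript over 296 bases. Also on the same strand, Ifitm2 overlaps a predicted gene over 268 bases and Tapbp overlaps Zbtb22 over 149 bases.

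CUS replicate 3 stood apart from the other libraries. It was the lowest of the 9 libraries for 21.1% of all genes and the highest for 31.3%, and no other library exceeded 16.3% or 14.5%. The mean correlation of a library with the other libraries on the log scale was 0.987 for CUS replicate 3 and 0.990 to 0.993 for the others. Summed FPKM was 423256.9 in CUS replicate 3 and 370440.6 to 393663.3 elsewhere. For some members the log2 difference is given both with and without CUS replicate 3. A member value given without that pair was not necessarily stable to leaving it out. Neuronal markers summed to 3833 to 4199 FPKM in running, 3804 to 3962 FPKM in CUS and 3911 to 3987 FPKM in control libraries. Neuronal genes were thus abundant in every library of the labelled cortex. Read depth is unknown for these values, so no counting interval can be given. The 18 microglial markers summed to 344 to 366 FPKM in running, 375 to 475 FPKM in CUS and 367 to 406 FPKM in control libraries, and the 475 FPKM were those of CUS replicate 3, with 405 and 375 FPKM in the other CUS libraries. The summed FPKM was thus lower in every running library than in every CUS or control library. The separation was narrow, at 366 FPKM in running replicate 2 and 367 FPKM in control replicate 1. Those libraries had FPKM totals of 370440.6 and 380395.2. Relative to its own total, the sum of running replicate 2 lay above that of control replicate 1. The separation of the running libraries thus held in FPKM only. T and NK cell markers summed to at most 2.22 FPKM and B cell markers to at most 0.790 FPKM in any library. Endothelial markers summed to 155 to 201 FPKM in running, 158 to 185 FPKM in CUS and 191 to 216 FPKM in control libraries. Of the 12, 10 had values below 0 in CUS against control (median -0.26, and -0.11 without CUS replicate 3) and 12 in running against control (median -0.23). An unadjusted limma p under 0.05 was found for 2 and 5, where 14.7% and 11.6% of all genes had one, and 0 were called. All 8 oligodendrocyte markers had values below 0 in CUS against control (median -0.54) and in running against control (median -0.44), and 0 were called. An unadjusted limma p under 0.05 was found for 4 and 2, beside the same shares of all genes. They summed to 465 to 688 FPKM in CUS, 544 to 616 FPKM in running and 616, 659 and 1152 FPKM in control libraries. The highest sum was that of control replicate 3, and medians without that library were not computed. All 5 red blood cell markers had values above 0 in each comparison, with a median of 0.72 in running against control, and 0 were called. Ttr, a choroid plexus marker, was at 212.18 FPKM in control replicate 3 and at most 38.81 FPKM elsewhere. The part of these cell types in the member values was not tested.

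The first comparison asked what the stress model changed. Between CUS and control libraries, 0 of the 30 members were called at an adjusted p under 0.05, where 1 of all 14013 genes was called (0.00714%). The test was limma on log2(FPKM + 0.5), and 1 member, Bst2, had an unadjusted p under 0.05, where 14.7% of all genes did. Bst2 was also the 1 member whose groups did not overlap, higher in CUS, where 12.1% of all genes were apart and higher, 7.60% apart and lower, and 19.7% apart in either direction. The log2 difference was above 0 for 21 members and below 0 for 9, with a median of 0.06, beside 0.02 over all genes. Of all genes, 55.9% were above 0. With FPKM rescaled to TPM, a transcript share obtained by dividing each library by its own sum, the split was 15 above and 15 below.

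Bst2 encodes tetherin, which holds budding virions at the cell membrane, and lies on chromosome 8 at 71534255 to 71537472. It is the member whose promoter stretch held 2 overlapping ISRE matches and 1 GAS match. Its level was 3.74, 3.57 and 4.12 FPKM in the CUS libraries, against 3.11, 2.67 and 2.35 FPKM in the control libraries. Every CUS library lay above every control library, with means of 3.81 ± 0.282 and 2.71 ± 0.382 FPKM (SD, n = 3 each). The log2 difference was 0.43 (SE 0.108), a 1.35-fold higher value, with an unadjusted limma p of 0.00214 and an adjusted p of 0.242. It ranged between 0.35 and 0.52 over 21 alternative settings, with adjusted p between 0.0804 and 0.504.

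In the class I chains, 5 of 6 differences between CUS and control were above 0, and 3 of 6 after rescaling to TPM or without CUS replicate 1. B2m measured 113.05, 98.08 and 133.82 FPKM in CUS libraries, against 98.00, 88.02 and 114.44 FPKM in control libraries. The groups overlapped, and the log2 difference was 0.20 (SE 0.114, adjusted p by limma = 0.414), or 0.08 without CUS replicate 3. H2-K1, singled out after its values were seen, had 15.95, 12.93 and 11.20 FPKM in CUS libraries, against 9.66, 10.13 and 11.96 FPKM in control libraries. CUS replicate 1 was the high one, and the third CUS library lay below the highest control. Its log2 difference was 0.31 (SE 0.145, adjusted p = 0.343), and 0.18 without CUS replicate 1 and 0.51 with library weights. For H2-D1, H2-T23, H2-T22 and H2-Q4 the difference was within 1 SE of 0.

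Of the peptide loading genes, Tap1 and Tap2 had values below 0 (log2 -0.21 and -0.15, adjusted p by limma = 0.531 and 0.573). Tap1 was at -0.10 without CUS replicate 3 or without control replicate 1, at -0.35 without control replicate 2 and at -0.08 with library weights. The Tap2 mean rested on CUS replicate 3, at 1.91 FPKM, where the other CUS libraries had 3.12 and 2.87 FPKM and the control libraries 2.86, 3.06 and 2.89 FPKM. Without that library the difference was 0.02, and with library weights it was 0.02. Tapbp had 10.34, 10.15 and 9.84 FPKM in CUS libraries and 9.62, 10.16 and 9.90 FPKM in control libraries, an overlapping and narrow set.

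**Figure D2:**
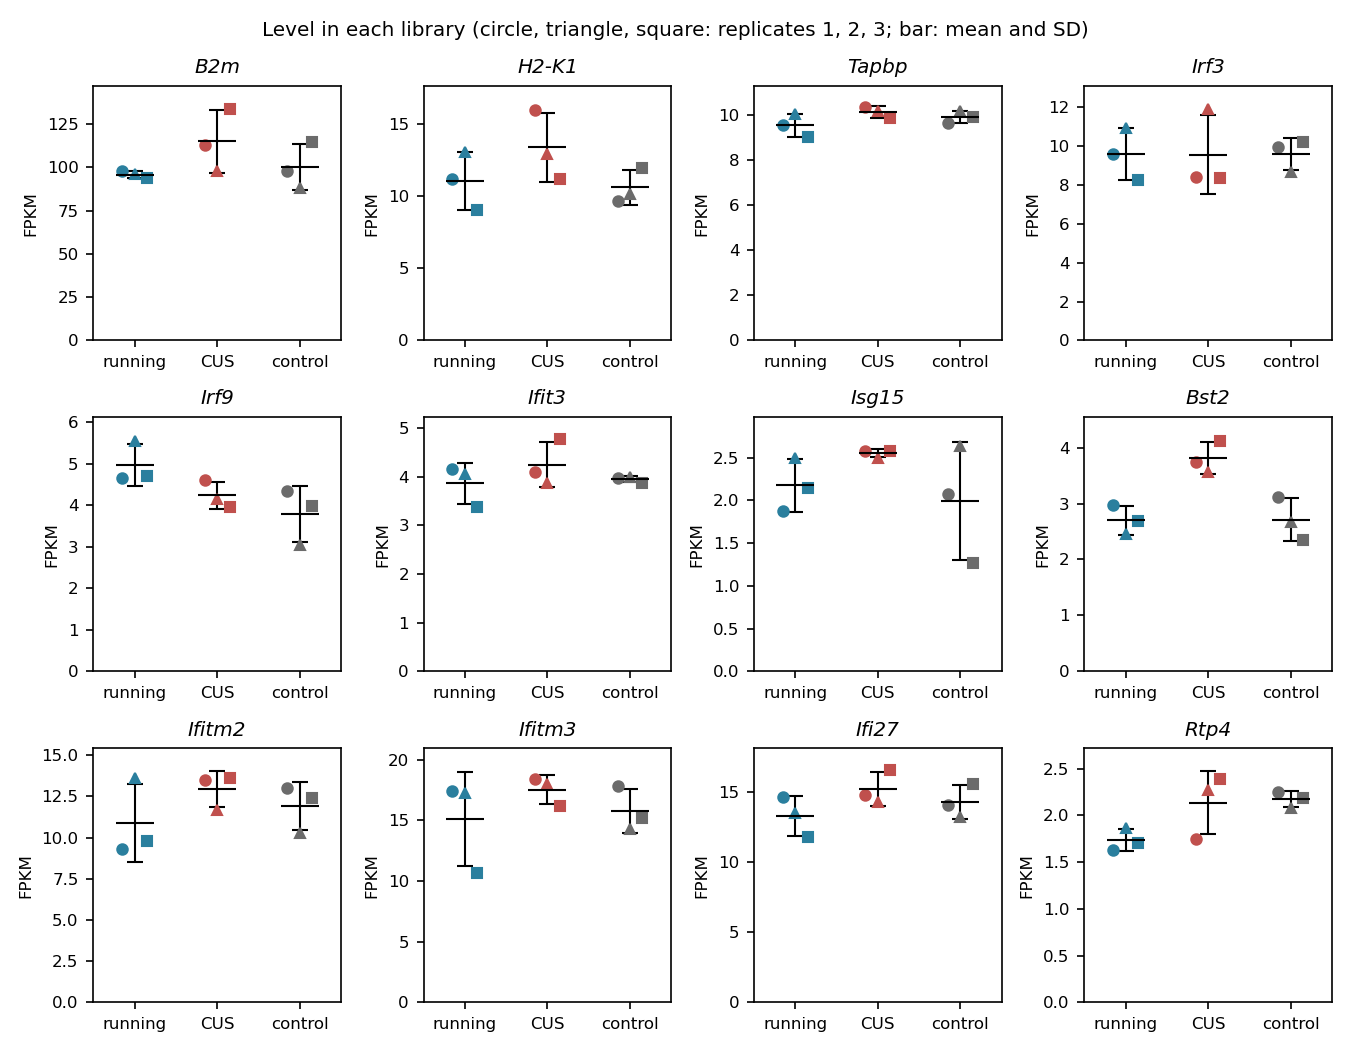
FPKM of 12 members in each library, in running, CUS and control groups from left to right, with points for libraries and bars for mean and SD (n = 3 each). The 3 CUS values of Bst2 lie above all other values of that gene, and the Irf9 values of the running libraries lie above those of CUS and control libraries.

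The transcription factors showed small differences in CUS against control libraries. Stat2, a partner of Irf9 in the ISGF3 complex, had a log2 difference of 0.14 (SE 0.0926, adjusted p by limma = 0.467). Over the alternatives this Stat2 value lay between 0.08, after rescaling to TPM, and 0.22, with library weights. Irf3, which drives interferon genes after nucleic acid sensing, measured 8.41, 11.89 and 8.35 FPKM in CUS libraries and 9.92, 8.66 and 10.18 FPKM in control libraries. CUS replicate 2 held the highest value of all 9 libraries, and the other CUS libraries lay below every control. Irf1, Irf7 and Irf9 had overlapping groups as well.

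Among the antiviral effectors, 4 of 5 cytosolic members had values above 0 in CUS against control, and none had groups apart. Ifit3, which binds viral RNA with its family members, measured 4.10, 3.87 and 4.77 FPKM in CUS libraries and 3.98, 4.00 and 3.88 FPKM in control libraries. Ifit1 had a log2 difference of 0.23 (SE 0.178, adjusted p by limma = 0.525). Ifih1, a cytosolic sensor of double-stranded RNA, had means of 0.917 ± 0.150 and 1.03 ± 0.132 FPKM in CUS and control libraries (SD, n = 3 each).

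Isg15, a ubiquitin-like protein that is conjugated to new proteins during infection, had 2.58, 2.50 and 2.58 FPKM in CUS libraries. Its control libraries had 2.08, 2.64 and 1.27 FPKM. The CUS values lay close together inside the wide control range. The log2 difference was 0.33 (SE 0.177, adjusted p by limma = 0.383), and 0.10 without control replicate 3 and 0.51 without control replicate 2. Usp18, which removes Isg15 from its targets, averaged 0.510 ± 0.108 FPKM in CUS and 0.450 ± 0.0794 FPKM in control libraries (SD, n = 3 each). Trim25, a ubiquitin ligase of the RNA sensing pathway, had a log2 difference of -0.18 (SE 0.137, adjusted p = 0.522), and -0.10 without CUS replicate 3.

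The other membrane restriction factors, Ifitm2 and Ifitm3, which hinder fusion of virions with cell membranes, had values above 0 and overlapping groups. Ifitm3 measured 18.37, 18.01 and 16.18 FPKM in CUS libraries and 17.83, 14.31 and 15.18 FPKM in control libraries. Of the remaining induced genes, Ifi27, a small membrane protein, measured 14.81, 14.28 and 16.58 FPKM in CUS libraries and 14.11, 13.21 and 15.60 FPKM in control libraries. Ifi35, Rtp4, Xaf1 and Lgals3bp likewise differed by less than 1 SE.

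The comparison of running with CUS libraries addressed what exercise altered in stressed mice. Here 0 of 30 members were called, where 2 of all genes were called (0.0143%). Groups were apart for 1 member higher in running, Irf9, where 8.99% of all genes were, and for 2 lower in running, Bst2 and B2m, where 15.9% of all genes were. In either direction that was 3 members, where 24.9% of all genes were apart. Bst2 was the 1 member with an unadjusted limma p under 0.05, where 23.4% of all genes had one. The members thus held no larger share of such genes than the table as a whole. The log2 difference was above 0 for 10 members and below 0 for 20, with a median of -0.09, beside -0.03 over all genes. Of all genes, 42.2% were above 0 here. After rescaling to TPM the split was 15 and 15 and the median 0.00, and with medians centred the split was 14 and 16.

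Bst2 had 2.97, 2.45 and 2.69 FPKM in the running libraries, against the CUS values of 3.74, 3.57 and 4.12 FPKM. No running library reached the lowest CUS library. Running means were 2.70 ± 0.260 FPKM and CUS means 3.81 ± 0.282 FPKM (SD, n = 3 each). The log2 difference was -0.43 (SE 0.108), a fold of 0.74, with an unadjusted limma p of 0.00216 and an adjusted p of 0.0827. Over the alternatives it lay between -0.49 and -0.36, with adjusted p between 0.0225 and 0.284. It passed the threshold with library weights (adjusted p = 0.0225) and without CUS replicate 2 (adjusted p = 0.0384), settings under which 2225 and 1605 genes were called. This comparison and the one of CUS with control share the CUS libraries, so the high CUS level of Bst2 enters both.

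B2m lies on chromosome 2 at 122147687 to 122153082. It had 97.95, 96.03 and 93.60 FPKM in running libraries, against 113.05, 98.08 and 133.82 FPKM in CUS libraries. The highest running library and the lowest CUS library differed by little. In TPM the groups overlapped, at 259, 259 and 252 in running libraries and 287, 254 and 316 in CUS libraries. The means were 95.9 ± 2.18 FPKM in running and 115 ± 17.9 FPKM in CUS libraries (SD, n = 3 each). On the log2 scale the difference was -0.25 (SE 0.114), which had an unadjusted limma p of 0.0504 and an adjusted p of 0.213, and it was -0.14 without CUS replicate 3. All 6 class I chains tested had values at or below 0 in running against CUS, with H2-T22 at -0.01 and H2-T23 at -0.00. Over the alternatives H2-T22 lay between -0.16 and 0.10 and H2-T23 between -0.14 and 0.10. After rescaling to TPM 4 of the 6 chains were below 0, with H2-D1 at -0.01 and H2-T23 at 0.10. Without CUS replicate 1 or without running replicate 3 it was 3 of 6. H2-K1 measured 11.14, 13.01 and 9.0 FPKM in running libraries, against 15.95, 12.93 and 11.20 FPKM in CUS libraries. Its groups overlapped, and its log2 difference was -0.26 (SE 0.145, adjusted p = 0.292). With library weights, where 2225 genes were called, the value was -0.51 (adjusted p = 0.0286). Without CUS replicate 1 or without running replicate 3 it was -0.13. H2-Q7 stayed under the filter, at 0.00, 0.24 and 0.15 FPKM in running libraries and 0.60, 0.21 and 0.24 FPKM in CUS libraries.

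The membrane factors had the lowest median of the roles in this comparison, at -0.25 over Bst2, Ifitm2 and Ifitm3. Ifitm3 measured 17.41, 17.28 and 10.64 FPKM in running libraries, against 18.37, 18.01 and 16.18 FPKM in CUS libraries. The low running value was that of replicate 3, and without it the log2 difference was -0.01 in place of -0.24 (SE 0.159, adjusted p by limma = 0.388). Ifitm2 had -0.25 (SE 0.134, adjusted p = 0.276), and -0.42 without running replicate 2 and -0.15 without running replicate 1. Ifi27 measured 14.68, 13.49 and 11.84 FPKM in running libraries, against 14.81, 14.28 and 16.58 FPKM in CUS libraries. Its log2 difference was -0.19 (SE 0.0919, adjusted p = 0.244), and -0.09 after rescaling to TPM.

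Irf9, the DNA-binding subunit of ISGF3, lies on chromosome 14 at 55603985 to 55610030, and its promoter window held none of the motifs searched. It had 4.65, 5.55 and 4.70 FPKM in the running libraries, against 4.60, 4.16 and 3.97 FPKM in the CUS libraries. The lowest running library stood just above the highest CUS library. The log2 difference was 0.20 (SE 0.119, adjusted p by limma = 0.323), and it was 0.11 with library weights and 0.31 after rescaling to TPM. Stat2 had the opposite sign at -0.11 (SE 0.0926, adjusted p = 0.511), or -0.18 without CUS replicate 3, and Irf3 measured 9.57, 10.93 and 8.25 FPKM in running libraries, overlapping the CUS values of 8.41, 11.89 and 8.35 FPKM. Isg15 had 1.88, 2.50 and 2.15 FPKM in running libraries, against 2.58, 2.50 and 2.58 FPKM in CUS libraries, with a log2 difference of -0.20 (SE 0.177, adjusted p = 0.528).

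Of the 18 microglial markers, 16 had values below 0 in running against CUS, with a median of -0.23, and limma called 0. Groups were apart and lower for 7 of them, where 15.9% of all genes were, and 9 had an unadjusted p under 0.05, where 23.4% of all genes had one. Without CUS replicate 3 the median was -0.11, with 14 below 0, and after rescaling to TPM it was -0.13, with 12 below 0. In TPM only 3 markers were apart and lower, and 2 had an unadjusted limma p under 0.05. The shares of all genes were not computed in TPM. Without CUS replicate 2, 7 of them were called, a setting in which 1605 of 13977 genes were called. In CUS against control 15 had values above 0 and the median was 0.10, or 0.05 without CUS replicate 3. After rescaling to TPM 10 were above 0 and 8 below in that comparison, with a median of 0.03. In running against control 13 had values below 0, with a median of -0.07. Groups were apart there for 7 lower and 2 higher, where 11.9% and 10.5% of all genes were, and for 4 and 2 after rescaling to TPM. Their part in the member values was not tested.

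**Figure D3:**
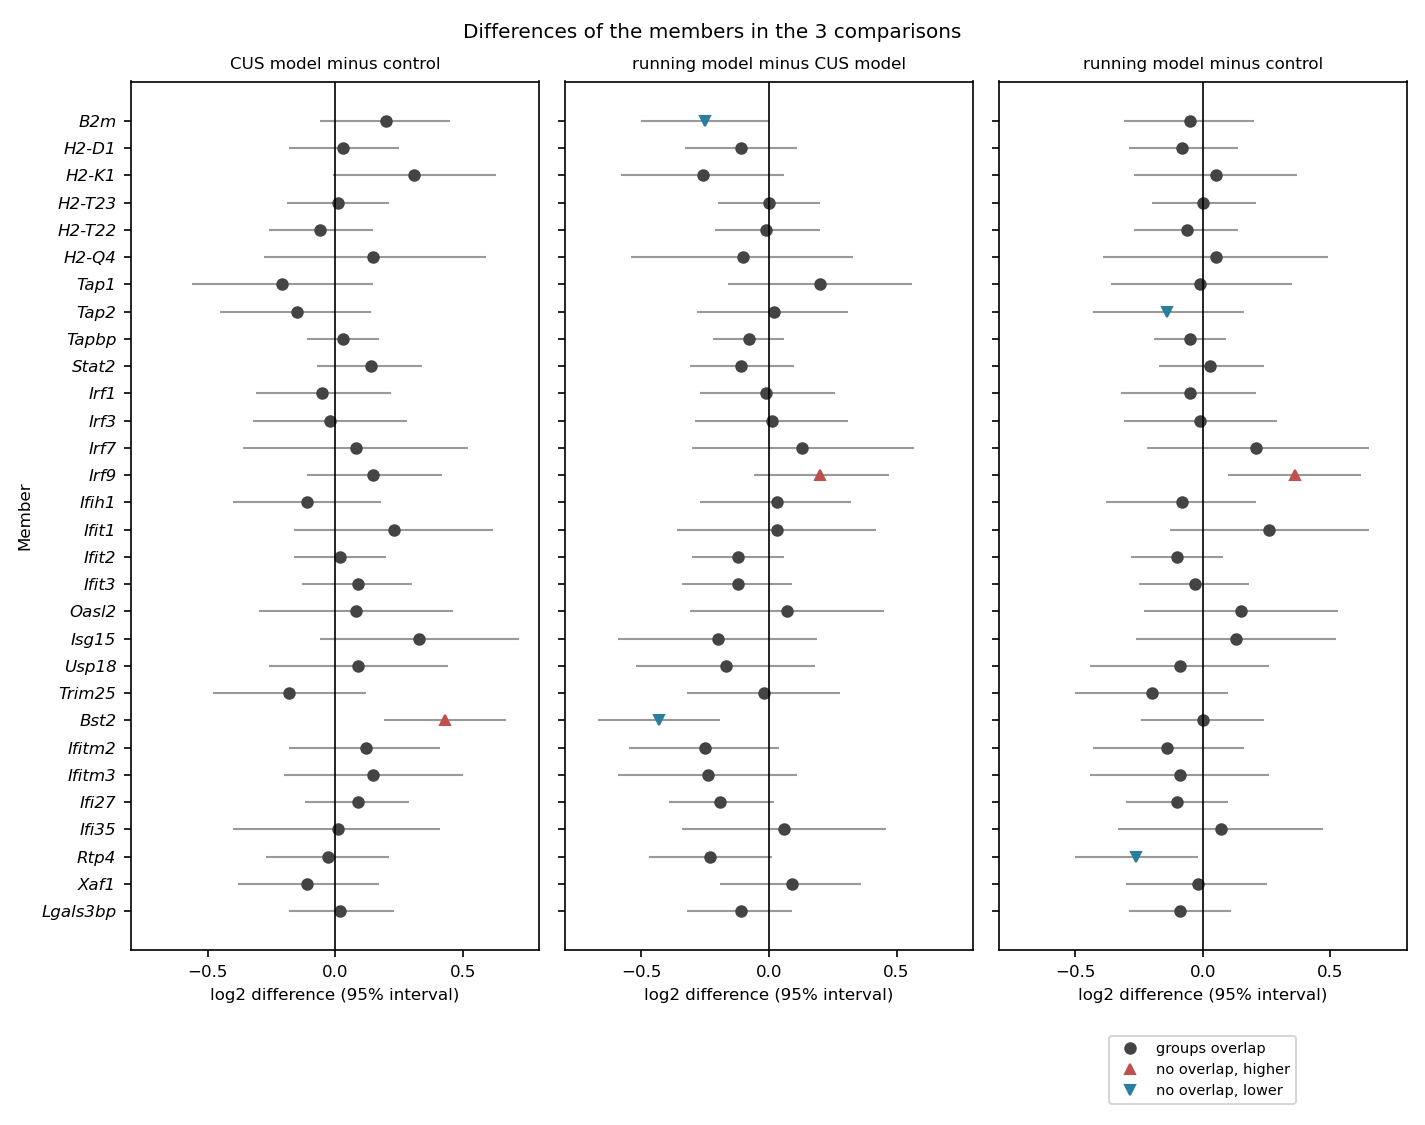
Log2 differences of the 30 members tested, with 95% intervals, for CUS minus control, running minus CUS and running minus control. Triangles mark members whose groups did not overlap, and the intervals of Bst2 exclude 0 in the first 2 panels while those of most members cover it.

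The running libraries were also set against the control libraries. Again 0 of 30 members were called, where 3 of all genes were called (0.0214%). Groups were apart for Irf9, higher in running, and for Tap2 and Rtp4, lower in running, or 3 of 30 members. Over all genes 10.5% were apart and higher, 11.9% apart and lower, and 22.4% apart in either direction. An unadjusted limma p under 0.05 was found for Irf9 and Rtp4, where 11.6% of all genes had one. The split was 11 above and 19 below 0, where 43.8% of all genes were above 0. The member median was -0.04 beside -0.02 over all genes, and the split was 14 above and 16 below after rescaling to TPM. Without running replicate 3 the split turned to 19 above and 11 below, with a median of 0.04.

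Irf9 averaged 4.97 ± 0.506 FPKM in running and 3.79 ± 0.666 FPKM in control libraries (SD, n = 3 each). The control libraries had 4.34, 3.05 and 3.98 FPKM, all below the lowest running value of 4.65 FPKM. The log2 difference of 0.36 (SE 0.119) had an unadjusted limma p of 0.0120 and an adjusted p of 0.295. It was 0.23 without control replicate 2, the lowest control, and between 0.28 and 0.45 without any other control or running library. Rtp4, a chaperone that brings G protein-coupled receptors to the cell surface, lies on chromosome 16 at 23520219 to 23614222. It had 1.63, 1.87 and 1.71 FPKM in running libraries, against 2.25, 2.08 and 2.19 FPKM in control libraries. The groups did not overlap, with means of 1.74 ± 0.122 and 2.17 ± 0.0862 FPKM (SD, n = 3 each). Its log2 difference was -0.26 (SE 0.110), with an unadjusted limma p of 0.0391 and an adjusted p of 0.408. In CUS libraries Rtp4 had 1.75, 2.27 and 2.39 FPKM, and CUS replicate 1 lay among the running values.

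Tap2 measured 2.59, 2.72 and 2.57 FPKM in running libraries, against 2.86, 3.06 and 2.89 FPKM in control libraries. The separation was narrow and the log2 difference was -0.14 (SE 0.134, adjusted p by limma = 0.732), and -0.06 with the length and GC trend removed. Bst2 differed by 0.00 between running and control libraries, with a 95% interval of -0.24 to 0.24 on the log2 scale. For B2m that interval ran from -0.31 to 0.20 and for H2-K1 from -0.27 to 0.37. An adjusted p above the threshold does not show that the groups had the same level.

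Members also varied between libraries of 1 group. The median within-group SD on the log2 scale was 0.17 for the 30 members and 0.11 for all genes tested. Among members it was lowest for Tapbp at 0.05 and Ifit2 at 0.06, and highest for H2-Q4 at 0.31 and Irf7 at 0.29. Irf7, the interferon-induced amplifier of interferon genes, had 1.27, 2.12 and 1.13 FPKM in running, 1.44, 1.64 and 0.88 FPKM in CUS and 1.06, 1.17 and 1.36 FPKM in control libraries. Running replicate 2 was its highest library and CUS replicate 3 its lowest.

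The remaining members are given by their span over the 9 libraries, within which the groups overlapped in all 3 comparisons. H2-D1 lay between 15.96 and 22.02 FPKM, H2-T23 between 12.95 and 16.25 FPKM and H2-Q4 between 2.87 and 5.28 FPKM. Irf1, a factor induced by interferon gamma, lay between 2.99 and 4.12 FPKM. Ifit2, an RNA-binding relative of Ifit3, lay between 2.44 and 2.87 FPKM, and Oasl2, an oligoadenylate synthetase-like protein, between 0.76 and 1.52 FPKM. Ifi35, which forms a complex with Nmi, lay between 1.15 and 2.13 FPKM, and Xaf1, a pro-apoptotic antagonist of XIAP, between 2.52 and 3.72 FPKM. Lgals3bp, a secreted glycoprotein that binds galectins, lay between 5.91 and 7.95 FPKM. Parp14, an ADP-ribosyltransferase that did not pass the filter, lay between 0.37 and 0.65 FPKM. None of these spans exceeded 2.00-fold from lowest to highest library.

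**Figure D4:**
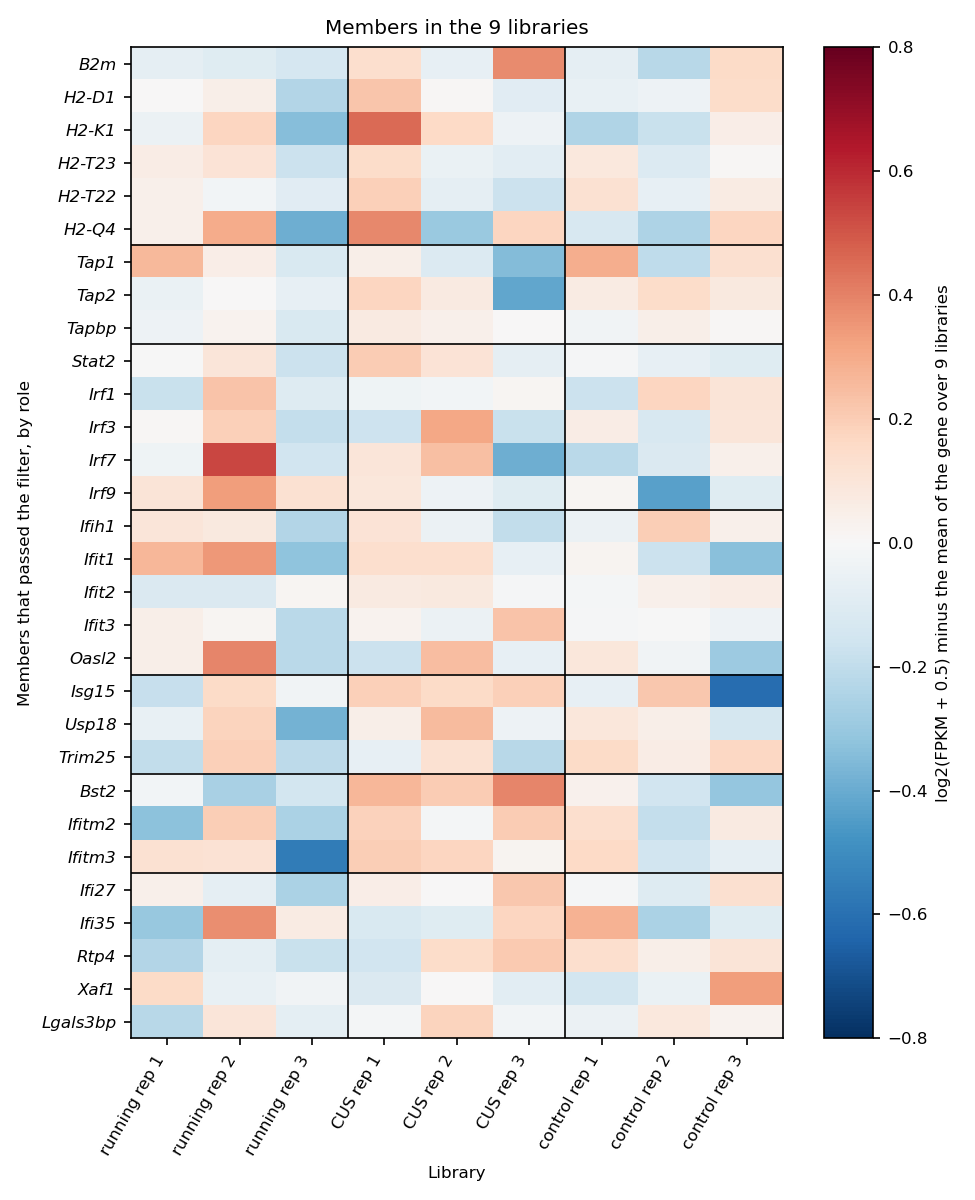
Members that passed the filter, grouped by role, in the 9 libraries, coloured by log2(FPKM + 0.5) minus the mean of the gene over all libraries (red above, blue below). Running replicate 3 is blue in most rows, and Bst2 is red in the 3 CUS columns.

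Libraries of the running group stood on opposite sides for many members. Running replicate 3 was the lowest of the 9 libraries for 12 of 30 members, a position it held for 16.3% of all genes, and it lay above the mean of the gene in 3 members. Running replicate 2 lay above the mean in 23 members and was the highest library for 7, a position it held for 14.5% of all genes. CUS replicate 1 was the highest library for 9 members and for 11.0% of all genes. CUS replicate 3 was the lowest for 5 members and the highest for 6, beside 21.1% and 31.3% of all genes. The median deviation of the members from their own means was -0.01, 0.10 and -0.17 in running libraries, 0.09, 0.06 and -0.04 in CUS libraries and 0.00, -0.07 and 0.05 in control libraries. Without running replicate 3 the median member difference between running and CUS was 0.01, and without running replicate 2 it was -0.13. The members are not independent of one another within a library, so these counts describe libraries and not conditions.

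**Figure D5:**
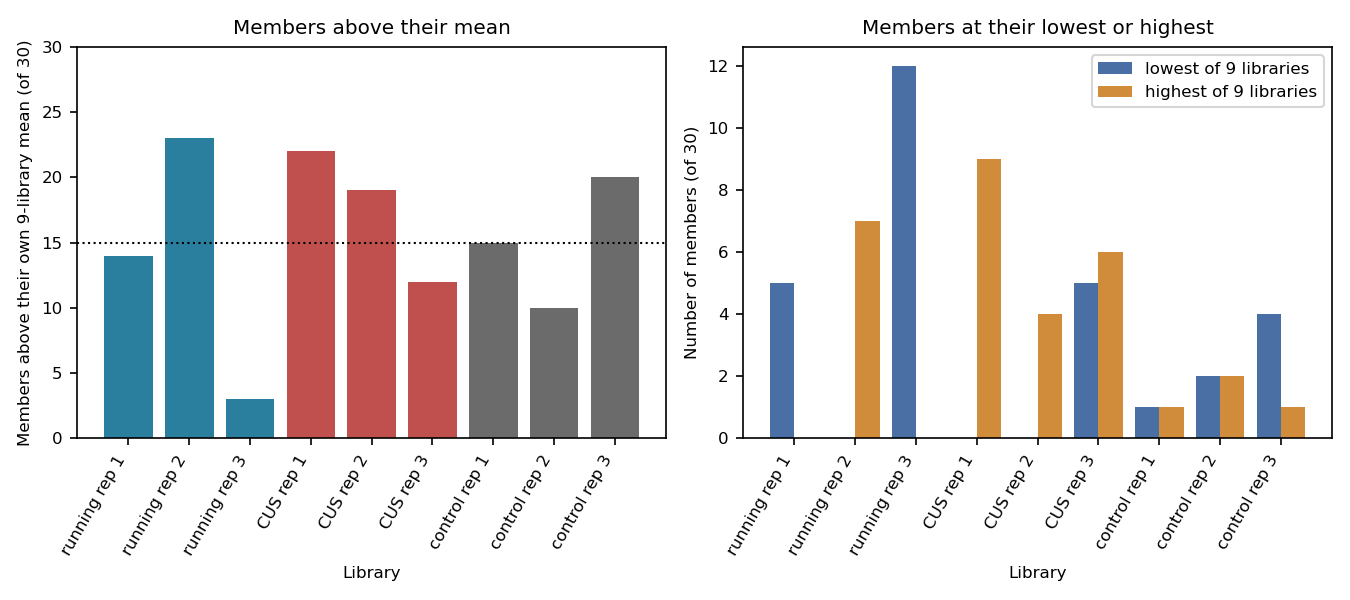
For each library, the number of the 30 members above their own mean over 9 libraries (left, with a dotted line at 15) and the number for which that library was the lowest or the highest (right). Running replicate 3 has 3 members above the mean and running replicate 2 has 23.

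Other genes of the pathway were taken from lists by function, and limma called 0 of their genes in any of the 3 comparisons. The 14 interferon ligand genes did not pass the filter: 9 were listed at 0 in all libraries, among them Ifnb1, and Ifng was at most 0.05 FPKM. Of 17 receptor and signalling genes tested, 11 had values above 0 in CUS against control, 8 in running against CUS and 14 in running against control. An unadjusted p under 0.05 was found for 2, 2 and 1 of them in these comparisons, where 14.7%, 23.4% and 11.6% of all genes had one. Ifngr2, a chain of the interferon gamma receptor, averaged 28.0 ± 1.68 FPKM in CUS and 23.7 ± 0.819 FPKM in control libraries (SD, n = 3 each; log2 0.23, adjusted p by limma = 0.249). Il10rb, a chain shared with the interferon lambda receptor, averaged 6.36 ± 0.247 FPKM in CUS and 5.28 ± 0.257 FPKM in control libraries (log2 0.25, adjusted p = 0.257).

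In the list of peptide loading and immunoproteasome genes, whose products cut and load the peptides that class I molecules carry, Psmb10 and Psme1 had the smallest p in running against CUS. Psmb10, a catalytic subunit, averaged 20.7 ± 1.78 FPKM in running, 26.1 ± 1.37 FPKM in CUS and 23.1 ± 0.850 FPKM in control libraries (SD, n = 3 each). Its log2 difference in running against CUS was -0.33 (SE 0.0715, adjusted p by limma = 0.0756). Psme1, a subunit of the proteasome activator, averaged 32.6 ± 1.62 FPKM in running, 39.5 ± 2.41 FPKM in CUS and 34.1 ± 1.81 FPKM in control libraries, with a log2 difference in running against CUS of -0.27 (SE 0.0675, adjusted p = 0.0818). Both had no overlap between running and CUS libraries, where 15.9% of all genes were apart and lower. Both passed the threshold with library weights (adjusted p = 0.0171 and 0.0286), a setting in which 2225 of 14013 genes were called. Psmb10 also passed without CUS replicate 2 (adjusted p = 0.0352), where 1605 of 13977 genes were called. After rescaling to TPM Psme1 was at -0.17. The other catalytic subunits overlapped between these groups: Psmb9 had 1.16, 1.30 and 1.46 FPKM in running libraries, against 1.15, 0.86 and 1.48 FPKM in CUS libraries, and Psmb8 had 2.42, 2.05 and 1.44 FPKM in running libraries, against 2.28, 2.31 and 1.71 FPKM in CUS libraries. Psmb8 and Psmb9 were added here after their values were seen. Of the 13 genes of that list, 8 had values above 0 in CUS against control, 6 in running against CUS and 7 in running against control, and 2, 3 and 1 had an unadjusted p under 0.05, where 14.7%, 23.4% and 11.6% of all genes had one.

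Among 9 further class I genes, 4 had values below 0 in CUS against control, 8 in running against CUS and 8 in running against control. In each comparison 1 had an unadjusted p under 0.05, where 14.7%, 23.4% and 11.6% of all genes had one. The 1 above 0 in running against CUS was H2-T24, a non-classical chain, at 12.3 ± 1.30 FPKM in running, 9.58 ± 1.48 FPKM in CUS and 12.6 ± 0.547 FPKM in control libraries (SD, n = 3 each). Its log2 difference was 0.35 in running against CUS (adjusted p by limma = 0.0995) and -0.39 in CUS against control (adjusted p = 0.249), opposite in sign to H2-K1 in both. The first passed the threshold with library weights (adjusted p = 0.0235) and without CUS replicate 2 (adjusted p = 0.0254). Under these settings 2225 and 1605 genes were called. Of 34 further interferon-stimulated genes tested, 16 had values above 0 in CUS against control, 14 in running against CUS and 14 in running against control. An unadjusted p under 0.05 was found for 3, 3 and 2, where the shares of all genes were again 14.7%, 23.4% and 11.6%. Shisa5, a stress-induced membrane protein, averaged 38.0 ± 0.303 FPKM in running, 42.7 ± 2.38 FPKM in CUS and 43.4 ± 0.527 FPKM in control libraries, with a log2 difference of -0.19 in running against control (adjusted p = 0.253). Mx1 and Mx2, antiviral GTPases, were listed at 0 in all 9 libraries.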

How the data were processed

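Polyadenylated RNA was sequenced from 9 libraries, per the labels' protocols. The submitters' processing notes name Bowtie2 2.2.5, RSEM 1.2.12, DESeq2 1.4.5 and build mm10, without the role of each or the annotation used. FPKM values, rounded to 2 decimals, were what the authors deposited. Of 65389 rows, 30264 carried another kind of identifier and were at 0 throughout, which left 35125 genes. FPKM keeps no read depth, and a gene at 0 is described only as listed at 0. FPKM is relative within a library, so a few abundant genes can shift the rest, and fold changes on the log2(FPKM + 0.5) scale understate those of low genes.

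Genes at 0.5 FPKM or more in at least 3 libraries (14013) were fitted in 1 limma 3.58.1 model (R 4.3.3) of all 9 libraries without covariates, with 6 residual degrees of freedom, an intensity trend and a robust prior (median prior degrees of freedom 4.98). P-values were adjusted by Benjamini-Hochberg over all genes tested, and 0.05 was the threshold. An exact permutation test of 3 against 3 libraries cannot go below 0.1 and was not used. The fit was run on simulated data with independent normal noise in each gene and no outlying library. That run cannot show how the fit behaves with a library such as CUS replicate 3.

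The members and lists were chosen with earlier results of these data known. Values in every library were given for members with an unadjusted p under 0.05 and groups apart, for the member of highest mean in each role, and for members singled out. From each pathway list up to 3 genes with the smallest p in a comparison could be named. Replicates were numbered in listing order. Shared 50-base stretches and exon overlaps were taken from GENCODE M21 on GRCm38, and promoters from RefSeq. Alternatives covered the pseudocount, the filter, scaling, the prior, library weights, the libraries fitted, a length and GC trend, and leaving out each library.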

Additional observations from a re-analysis of the deposited data

How the results depend on the processing

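No paired analysis was possible because the replicate numbers follow listing order and tie no library of one group to a library of another. Over 21 alternatives, 17 of 30 members had no sign change in running against CUS, 16 in CUS against control and 12 in running against control. Genes called in CUS against control were 1 as reported, 0 with a filter of at least 1 FPKM and 11 with library weights, and 0 to 4 with 1 library left out. In running against CUS the 2 genes became 1 without a filter, 1 without trend and robust prior, 1 with the trend but no robust prior (an alternative added after seeing the data), 4 after rescaling to TPM, 4 with medians centred, 16 with the 6 libraries compared alone and 2225 with library weights, and 0 to 1605 with 1 library left out, the highest without CUS replicate 2. In running against control the 3 genes became 1 without a filter, 5 after rescaling to TPM, 7 without trend and robust prior, 8 with the length and GC trend removed, 13 with quantile normalization, 93 with the 6 libraries compared alone and 176 with library weights, and 0 to 24 with 1 library left out. Members called in running against CUS were 2 with library weights, H2-K1 and Bst2, and 0 to 1 with 1 library left out. The median member difference in running against CUS was 0.00 after rescaling to TPM and -0.13 to 0.01 with 1 library left out. Members whose groups did not overlap numbered 1 to 7 in CUS against control, 3 to 10 in running against CUS and 3 to 7 in running against control with 1 library left out. Fewer libraries overlap less often by construction. The matching shares of all genes were not computed, so these counts are not a result about the members. Tap2 in CUS against control reversed to 0.02 with library weights, and lay between -0.27 and 0.02 with 1 library left out. Tapbp in running against CUS reversed to 0.01 after rescaling to TPM. Apart from the overlap counts the cause was not tested. Depth is unknown, and 3 libraries a group leave wide intervals: for Bst2 in running against control, log2 differences between -0.24 and 0.24 could not be told from 0.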

Other observations

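MHC class II genes, which present peptides to helper T cells, lie beside the class I chains in function. Of 8 tested, 6 had values above 0 in CUS against control, 3 in running against CUS and 4 in running against control. Limma called 0, with 0, 1 and 1 at an unadjusted p under 0.05 in these comparisons, where 14.7%, 23.4% and 11.6% of all genes had one. Cd74, the invariant chain, averaged 8.59 ± 3.72 FPKM in running, 4.32 ± 1.23 FPKM in CUS and 4.54 ± 1.62 FPKM in control libraries (SD, n = 3 each). Its log2 difference was 0.87 in running against CUS (adjusted p by limma = 0.143) and 0.83 in running against control (adjusted p = 0.358), or 0.56 and 0.51 without running replicate 1. H2-DMa, which helps to load class II molecules, averaged 8.70 ± 0.265 FPKM in running, 10.4 ± 1.73 FPKM in CUS and 10.2 ± 0.961 FPKM in control libraries.

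Of 15 nucleic acid sensing genes tested, 8 had values above 0 in CUS against control, 7 in running against CUS and 4 in running against control. Limma called 0, with 1, 0 and 2 at an unadjusted p under 0.05, where 14.7%, 23.4% and 11.6% of all genes had one. Tlr9, an endosomal DNA sensor, averaged 0.467 ± 0.123 FPKM in running, 0.330 ± 0.0889 FPKM in CUS and 0.747 ± 0.178 FPKM in control libraries (SD, n = 3 each). Its log2 difference was -0.58 in CUS against control (adjusted p by limma = 0.242) and -0.37 in running against control (adjusted p = 0.394). With a pseudocount of 0.1 these were -0.98 and -0.58, so at this low level the size depends on the pseudocount. Tlr9 had 0.95, 0.62 and 0.67 FPKM in control, 0.33, 0.50 and 0.57 FPKM in running and 0.43, 0.30 and 0.26 FPKM in CUS libraries. It passed the filter only through the control libraries, its highest group, so the filter favours such a difference.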
